A study of Mus musculus with 6 samples.

Results

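Fc receptors bind the constant part of antibodies, and 8 genes of the mouse encode the receptors for IgE and IgG examined here. The genes were taken by symbol from the 54532 genes of the deposited table: *Fcer1a*, *Ms4a2*, *Fcer1g*, *Fcgr1*, *Fcgr2b*, *Fcgr3*, *Fcgr4* and *Fcgrt*. All 8 were found, and all 8 passed the filter on low counts that left 14169 genes for testing, *Fcgr1* and *Fcgrt* through the *Phf6*-deleted libraries only. RNA-sequencing compared *WT Phf6,RE9a* cells (WT) with *VC Phf6,RE9a* cells (VC), with 3 libraries each, numbered 1, 2 and 3 and 11, 12 and 13. Both are mouse AML cells made by transducing lineage-negative fetal liver cells of male donors with a retrovirus for RUNX1-ETO9a (RE9a, an oncogenic fusion protein) and GFP, followed by serial transplantation into male recipients, and GFP+ cells were sorted from bone marrow for sequencing. Both carry the floxed *Phf6* allele (*Phf6* fl/y), and *VC Phf6,RE9a* cells also carry Vav1-Cre, which acts in all blood cells and deletes *Phf6*, a chromatin-associated protein. The labels give no age, treatment or transplant passage of the sequenced cells and leave it unsaid if libraries come from different mice, so that p-values measure only the spread between these libraries.

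The high-affinity IgE receptor of mast cells and basophils is built from an alpha chain that binds IgE (*Fcer1a*), a beta chain that amplifies the signal (*Ms4a2*) and a pair of gamma chains that carry the activation motif (*Fcer1g*). The gamma chain also serves the activating IgG receptors encoded by *Fcgr1*, *Fcgr3* and *Fcgr4*, whereas *Fcgr2b* encodes the inhibitory IgG receptor, which carries its own inhibitory motif. The neonatal Fc receptor (*Fcgrt*) works inside cells, where it returns IgG from endosomes to the surface. Myeloid progenitors are commonly sorted by an antibody to CD16/32, which are the products of *Fcgr3* and *Fcgr2b*.

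The promoters of the 3 IgE receptor chains are shown because the alpha chain fell, the gamma chain rose and the beta chain did not pass the test. They are the 250 bases before the RefSeq transcription start (GRCm38.p6), read along the gene, and capitals mark the letters AGATAA or TTATCT (bound by GATA factors) and TGTGGT or ACCACA (bound by RUNX factors). The windows are chr1:173227230-173227479 for *Fcer1a*, chr19:11623720-11623969 for *Ms4a2* and chr1:171234350-171234599 for *Fcer1g*, all on the minus strand.
Fcer1a: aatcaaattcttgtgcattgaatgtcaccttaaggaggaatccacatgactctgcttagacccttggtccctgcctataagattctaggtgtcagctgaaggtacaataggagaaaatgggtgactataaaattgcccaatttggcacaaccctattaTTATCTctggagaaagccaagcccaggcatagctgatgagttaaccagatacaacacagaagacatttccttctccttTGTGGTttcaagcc
Ms4a2: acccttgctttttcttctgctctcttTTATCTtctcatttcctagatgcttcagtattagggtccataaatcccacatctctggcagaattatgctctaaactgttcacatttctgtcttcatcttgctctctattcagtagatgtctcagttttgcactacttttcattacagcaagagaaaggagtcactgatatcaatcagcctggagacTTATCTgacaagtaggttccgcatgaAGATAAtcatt
Fcer1g: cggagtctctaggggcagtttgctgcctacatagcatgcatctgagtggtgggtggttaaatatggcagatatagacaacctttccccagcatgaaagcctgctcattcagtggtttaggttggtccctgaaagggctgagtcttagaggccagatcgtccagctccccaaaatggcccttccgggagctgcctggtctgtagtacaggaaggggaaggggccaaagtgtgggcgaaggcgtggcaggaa
Both strands were searched. *Fcer1a* held 1 GATA and 1 RUNX match, which began at -92 and -14 from the start. *Ms4a2* held 3 GATA matches, at -224, -37 and -11, and no RUNX match. *Fcer1g* held neither. Among 32851 mouse promoters of the same length, 9.99% held the GATA letters and 14.0% the RUNX letters. Of the 8 Fc receptor genes, *Fcer1a* and *Ms4a2* had the GATA letters and *Fcer1a* and *Fcgr4* the RUNX letters. A match describes these letters and not a bound site.

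*Phf6* (chrX:52912266-52956943) had 1044, 827 and 1142 counts in WT and 388, 314 and 331 in VC libraries, a log2 fold change of -1.66 (standard error, SE, 0.13, adjusted p = 9.32e-05 by the quasi-likelihood test of edgeR). Total counts per library ran from 15675358 to 16817994, and the limit that a count of 0 allows (3 counts) was 0.178 to 0.191 CPM (counts scaled to the library total), for counting error only. Over all 14169 genes, 44.2% passed the adjusted p of 0.05, 21.5% higher and 22.7% lower in VC cells, and the median log2 fold change was 0.01. The groups did not overlap for 57.3% of these genes, 28.9% higher and 28.4% lower. Among the Fc receptor genes, 4 were higher, 2 were lower and 2 did not pass the threshold, and the groups did not overlap for 6 of 8. Of the 4 higher, *Fcgr1* and *Fcgrt* passed the filter only through the VC libraries, so that they lend these counts no support. With 8 genes chosen with results known, these counts are a description beside those shares.

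**Figure D1:**
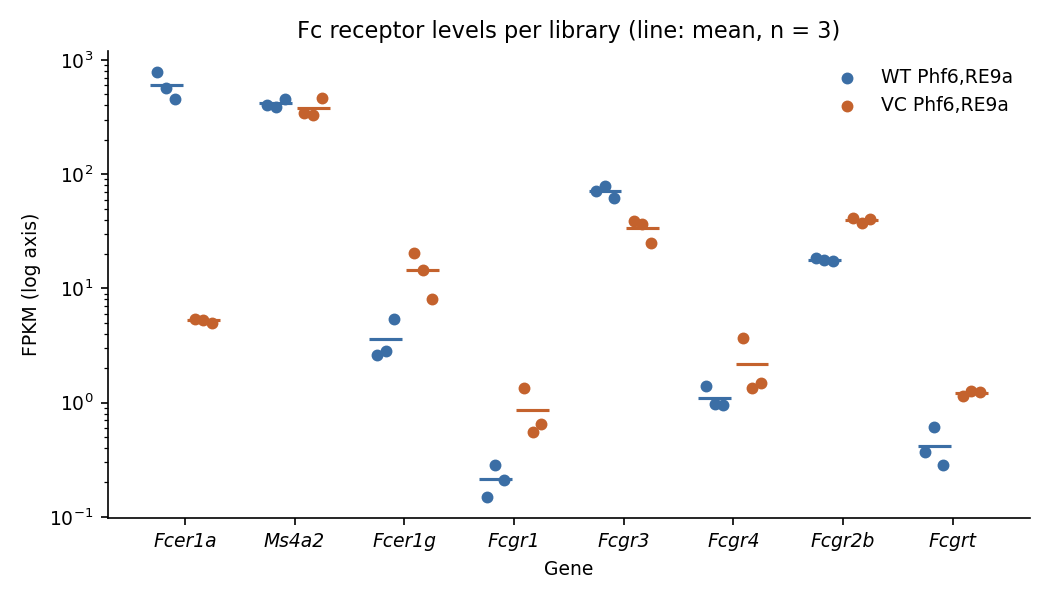
FPKM (counts scaled by gene length and library size) of the 8 Fc receptor genes in each library (log axis), with WT in blue, VC in orange and a line at the mean of 3 libraries. By mean FPKM, which depends on gene length, *Fcer1a* went from the top of the order in WT cells to 5.24 in VC cells. *Ms4a2* stayed above 330 FPKM in every library.

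The alpha chain of the IgE receptor fell far more than any other Fc receptor gene. *Fcer1a* (chr1:173221284-173227214) had 12065, 8395 and 7528 counts in WT and 92, 92 and 86 in VC libraries. Each VC library lay far below each WT library, and the VC libraries lay close to each other. Mean abundance was 603 ± 166 CPM in WT and 5.30 ± 0.169 CPM in VC cells (SD, n = 3), 114-fold lower (log2 fold change -6.83, SE 0.24, 95% confidence interval -7.39 to -6.27, edgeR adjusted p = 1.87e-05). It ranked 56 of 14169 genes when ordered from the most negative log2 fold change. In bulk RNA, fewer cells of a type and less RNA per cell cannot be told apart.

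The beta chain showed no such change. *Ms4a2* (chr19:11615523-11623719) had 17646, 16299 and 21294 counts in WT and 16431, 16048 and 22274 in VC libraries. The groups overlapped, with the highest count in replicate 13 of VC cells. Its level was 1180 ± 96.2 and 1076 ± 215 CPM (SD, n = 3), and the log2 fold change of -0.13 (SE 0.15, edgeR adjusted p = 0.519) had a 95% confidence interval of -0.49 to 0.22, which leaves out a change of the size of *Fcer1a*.

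The gamma chain rose from a low level. *Fcer1g* (chr1:171229572-171234365) had 35, 37 and 79 counts in WT and 306, 220 and 122 in VC libraries. The groups did not overlap, although replicate 13 of VC cells came near replicate 3 of WT cells. Mean abundance was 3.19 ± 1.39 CPM in WT and 12.7 ± 5.41 CPM in VC cells (SD, n = 3), with a log2 fold change of 1.99 (SE 0.42, edgeR adjusted p = 0.00662).

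**Figure D2:**
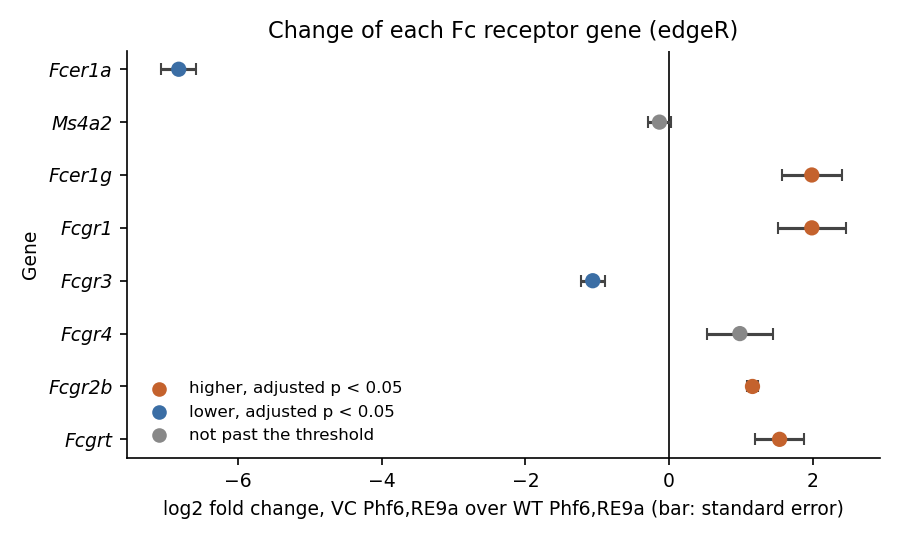
log2 fold change of each Fc receptor gene in VC over WT cells from edgeR, with bars for the standard error (3 libraries per group). *Fcer1a* stands at -6.83, while the other 7 genes lie between -1.06 and 1.99.

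Levels of different genes are compared in FPKM, which divides the count by gene length. In WT cells *Fcer1a* (601 ± 169 FPKM) and *Ms4a2* (417 ± 32.7 FPKM) stood at the top with overlapping ranges, and *Fcer1g* was at 3.62 ± 1.56 FPKM (SD, n = 3). *Fcer1a* came before *Ms4a2* only per length (998 against 2813 bases), since *Ms4a2* had more counts in every WT library. Orders and shares of FPKM depend on these lengths. In VC cells *Ms4a2* (377 ± 73.3 FPKM) remained at the top, *Fcer1g* was at 14.4 ± 6.13 FPKM and *Fcer1a* was below it at 5.24 ± 0.189 FPKM. *Fcer1a* made up 45.5% to 61.0% of the summed FPKM of the 8 genes in WT libraries and 0.924% to 1.25% in VC libraries. The share of *Ms4a2* was 31.7% to 45.7% and 75.3% to 84.9%. The sum itself was 992 to 1286 FPKM in WT and 428 to 544 FPKM in VC libraries.

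Ratios between chains within a library do not depend on how libraries are scaled. The FPKM ratio of *Fcer1a* to *Ms4a2* was 1.46 ± 0.465 in WT and 0.0143 ± 0.00294 in VC libraries (SD, n = 3). On the log2 scale of the counts the ratio differed by -6.64 between VC and WT cells. The log2 ratio of *Fcer1a* to *Fcer1g* differed by -8.75 and that of *Ms4a2* to *Fcer1g* by -2.12. *Ms4a2* stayed above *Fcer1g* in every library, with an FPKM ratio of 126 ± 37.7 in WT and 32.0 ± 21.6 in VC cells. For each of these 3 pairs the groups did not overlap and the exact 2-sided permutation test gave p = 0.1, the smallest that 3 against 3 libraries allow, so that this test cannot pass 0.05 (0.12 after Benjamini-Hochberg adjustment over 6 pairs).

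**Figure D3:**
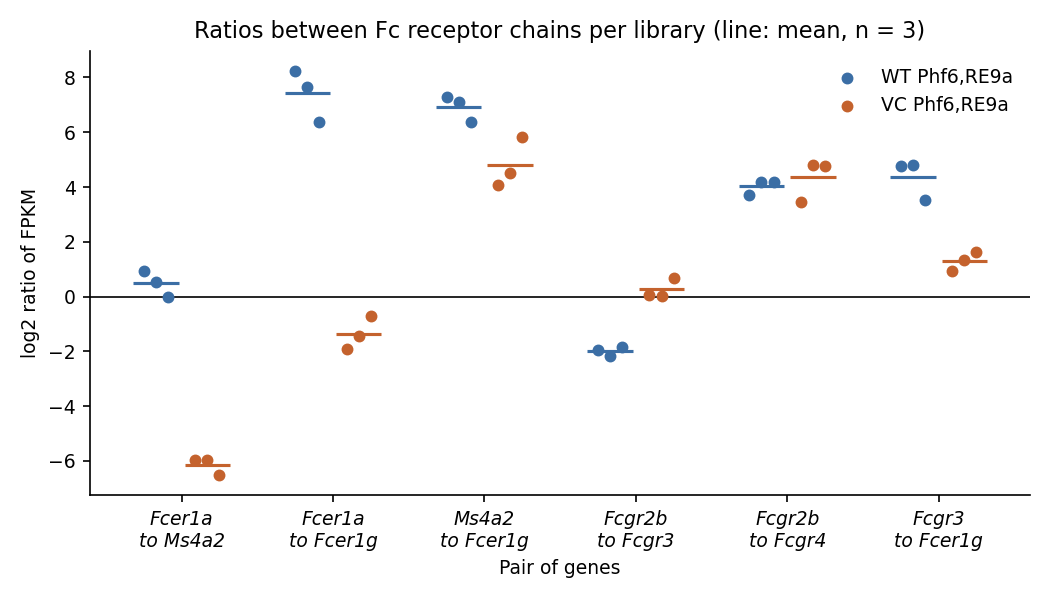
log2 ratio of FPKM between pairs of Fc receptor genes in each library, with WT in blue, VC in orange and a line at the mean of 3 libraries. The groups are apart for 5 of the 6 pairs and overlap for *Fcgr2b* to *Fcgr4*.

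The inhibitory and the main activating IgG receptor moved in opposite directions. *Fcgr2b* (chr1:170958617-170976547) had 1630, 1522 and 1695 counts in WT and 4073, 3776 and 3993 in VC libraries. Both groups were narrow and lay apart. Its log2 fold change was 1.16 (SE 0.08, edgeR adjusted p = 5.42e-05), 2.24-fold higher.

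*Fcgr3* (chr1:171051174-171064935), the activating receptor known as CD16, had 1894, 2034 and 1809 counts in WT and 1160, 1104 and 750 in VC libraries. Every VC library lay below every WT library, with replicate 13 the lowest. Mean abundance was 123 ± 14.3 CPM in WT and 59.1 ± 12.8 CPM in VC cells (SD, n = 3), 2.09-fold lower (log2 fold change -1.06, SE 0.17, edgeR adjusted p = 0.00200).

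Per length, *Fcgr3* exceeded *Fcgr2b* in each WT library (70.8, 78.8 and 62.4 against 18.3, 17.7 and 17.5 FPKM). In VC libraries *Fcgr3* was at 38.9, 36.8 and 25.2 FPKM and *Fcgr2b* at 41.0, 37.7 and 40.2 FPKM, so that their ranges overlapped. The ratio of *Fcgr2b* to *Fcgr3* was 0.258, 0.224 and 0.281 in WT and 1.05, 1.03 and 1.60 in VC libraries. It passed 1 in all 3 VC libraries and in no WT library (log2 ratio of counts higher by 2.24, exact permutation p = 0.1, the smallest possible, 0.12 adjusted over 6 pairs). Where 1 falls depends on the gene lengths used, 5790 bases for *Fcgr2b* and 1736 for *Fcgr3*. Without length, the log2 ratio of counts was -0.22, -0.42 and -0.09 in WT and 1.81, 1.77 and 2.41 in VC libraries. The summed FPKM of the CD16/32 genes was 88.5 ± 8.33 in WT and 73.3 ± 7.33 in VC cells (SD, n = 3). The ranges barely overlapped, with a lowest WT sum of 79.91 and a highest VC sum of 79.93. *Fcgr2b* made up 20.3% ± 1.82 and 54.5% ± 6.09 of that total.

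*Fcgr2b* and *Fcgr3* are near-identical over the part that encodes the extracellular domains, which bears on how reads were assigned. A stretch of 531 coding bases (GENCODE M21, GRCm38) differed at 32 positions, an identity of 94.0%, and the longest identical run was 129 bases. The part with that run is given as 229 bases of each coding sequence, positions 218 to 446 of *Fcgr2b* and 203 to 431 of *Fcgr3* counted from the start codon, with the 6 mismatches in capitals.
Fcgr2b: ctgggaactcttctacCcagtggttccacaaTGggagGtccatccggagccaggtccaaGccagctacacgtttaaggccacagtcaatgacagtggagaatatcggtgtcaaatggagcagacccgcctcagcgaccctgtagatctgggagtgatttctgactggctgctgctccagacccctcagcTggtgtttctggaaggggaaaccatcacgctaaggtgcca
Fcgr3: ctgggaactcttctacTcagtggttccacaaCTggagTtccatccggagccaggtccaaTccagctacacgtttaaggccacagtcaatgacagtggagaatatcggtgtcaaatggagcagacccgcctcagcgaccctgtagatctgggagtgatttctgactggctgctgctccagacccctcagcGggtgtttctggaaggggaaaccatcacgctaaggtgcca
Of all 50-base words in the coding sequence of *Fcgr2b*, 17.1% also occurred in *Fcgr3*, and 22.1% of those of *Fcgr3* occurred in *Fcgr2b*. The read length stated in the paper is longer than the longest identical run of 129 bases. Shared 50-base words therefore overstate how many whole reads fit both coding sequences without a mismatch. The other pairs of members shared no 50-base word, and their longest shared run was 14 bases. How reads that fit both genes were counted is not given in the sources used here, so their values are uncertain to that extent. A further 155 exon bases of *Fcgr2b* (2.68%) overlap the antisense gene *Gm38204*, which had 20 counts over all 6 libraries.

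The remaining IgG receptors were read at low levels. *Fcgr1* (chr3:96282909-96293969), the high-affinity IgG receptor, had 6, 11 and 9 counts in WT and 60, 25 and 29 in VC libraries. The groups did not overlap, and replicate 11 of VC cells stood above the rest. Its log2 fold change was 1.99 (SE 0.47, edgeR adjusted p = 0.0111), from 0.560 ± 0.179 to 2.24 ± 1.14 CPM (SD, n = 3). *Fcgr1* had passed the filter only through the VC libraries, where it was high.

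*Fcgr4* (chr1:171018920-171029761), another activating receptor, had 27, 18 and 20 counts in WT and 80, 29 and 32 in VC libraries. Replicate 11 was again the highest of the VC libraries. The log2 fold change of 0.99 (SE 0.46, edgeR adjusted p = 0.119) did not pass the threshold, with a 95% confidence interval of -0.08 to 2.05. Without replicate 11 of VC cells it was 0.37 (edgeR adjusted p = 0.479). The FPKM ratio of *Fcgr2b* to *Fcgr4* was 16.6 ± 3.04 and 22.1 ± 9.61 (SD, n = 3), with overlapping groups (exact permutation p = 0.6, 0.6 adjusted over 6 pairs).

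*Fcgrt* (chr7:45092990-45103851) had 12, 19 and 10 counts in WT and 41, 46 and 45 in VC libraries. The VC libraries were close to each other and above the WT libraries. Its log2 fold change was 1.54 (SE 0.35, edgeR adjusted p = 0.00900), from 0.891 ± 0.355 to 2.59 ± 0.148 CPM (SD, n = 3). *Fcgrt* too had passed the filter only through the VC libraries, where it was high. Its partner chain *B2m* had 7212, 15208 and 7479 counts in WT and 8706, 6823 and 8715 in VC libraries, and missed the threshold (log2 fold change -0.45, edgeR adjusted p = 0.281). On log2(FPKM + 1), which understates changes of low genes, limma gave 0.59 for *Fcgr1* and 0.65 for *Fcgrt*. Both passed the threshold there too, but limma was run on the same filtered genes, so that this adds no support.

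In the order of FPKM, WT cells ran *Fcer1a*, *Ms4a2*, *Fcgr3*, *Fcgr2b*, *Fcer1g*, *Fcgr4*, *Fcgrt* and *Fcgr1*. In VC cells the order was *Ms4a2*, *Fcgr2b*, *Fcgr3*, *Fcer1g*, *Fcer1a*, *Fcgr4*, *Fcgrt* and *Fcgr1*. Neighbours whose libraries overlapped were *Fcer1a* with *Ms4a2* in WT cells, *Fcgr2b* with *Fcgr3* in VC cells, and *Fcgrt* with *Fcgr1* in both. The ratio of *Fcgr3* to the gamma chain *Fcer1g*, which it needs at the surface, was 22.1 ± 9.20 in WT and 2.51 ± 0.593 in VC cells (FPKM, SD, n = 3). The log2 ratio of counts differed by -3.05, with groups that did not overlap (exact permutation p = 0.1, the smallest possible, 0.12 adjusted over 6 pairs).

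The cells were sorted on GFP alone, as far as the labels say, and their libraries held RNA of markers of several blood cell types. Whether the AML cells themselves or other cells made this RNA was not tested. Of 15 markers of mast cells and basophils, the cells in which the full IgE receptor is known, 14 were tested. Of these 13 fell (*Tpsb2* passed the filter only through the WT libraries) and 1 rose, beside 22.7% and 21.5% of all genes. The summed level of the 15 was 21864 to 35493 CPM in WT and 6618 to 7055 CPM in VC libraries. *Cpa3*, a mast cell protease, had a log2 fold change of -4.62 and *Cma1*, a mast cell chymase, of -5.64. The median log2 fold change of the 14 markers was -2.60, against -6.83 for *Fcer1a*. *Ms4a2*, a gene of the same cells, did not pass the threshold. Replicates 11 and 12 of VC cells (970 and 935 CPM) lay below every WT library (1106 to 1289 CPM), and replicate 13 (1323 CPM) above. How far the share of such cells enters these values was not tested. The 1 marker that rose did not pass the threshold without replicate 11 or 13 of VC cells or replicate 2 or 3 of WT cells.

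All 11 neutrophil markers rose, beside 21.5% of all genes, *Ly6g* having passed the filter only through the VC libraries. The number that rose was 10 without replicate 11 of VC cells or replicate 1 of WT cells, and with at least 10 counts in every library. The summed level of the 11 was 215, 169 and 540 CPM in WT and 3755, 2455 and 1046 CPM in VC libraries. *S100a8* had 581, 484 and 1487 counts against 13434, 8291 and 3415. Neutrophils carry *Fcer1g* and *Fcgr4*. *Fcer1g* followed the same order among VC libraries (18.1, 12.8 and 7.25 CPM) and was highest in replicate 3 among WT libraries (2.27, 2.51 and 4.78 CPM). *Fcgr4* did not follow that order, with 4.72, 1.69 and 1.90 CPM in VC and 1.75, 1.22 and 1.21 CPM in WT libraries. *Fcgr2b* was at 240, 220 and 237 CPM in VC libraries. The part of neutrophil RNA in the values of *Fcer1g*, *Fcgr4* and *Fcgr2b* was not tested.

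**Figure D4:**
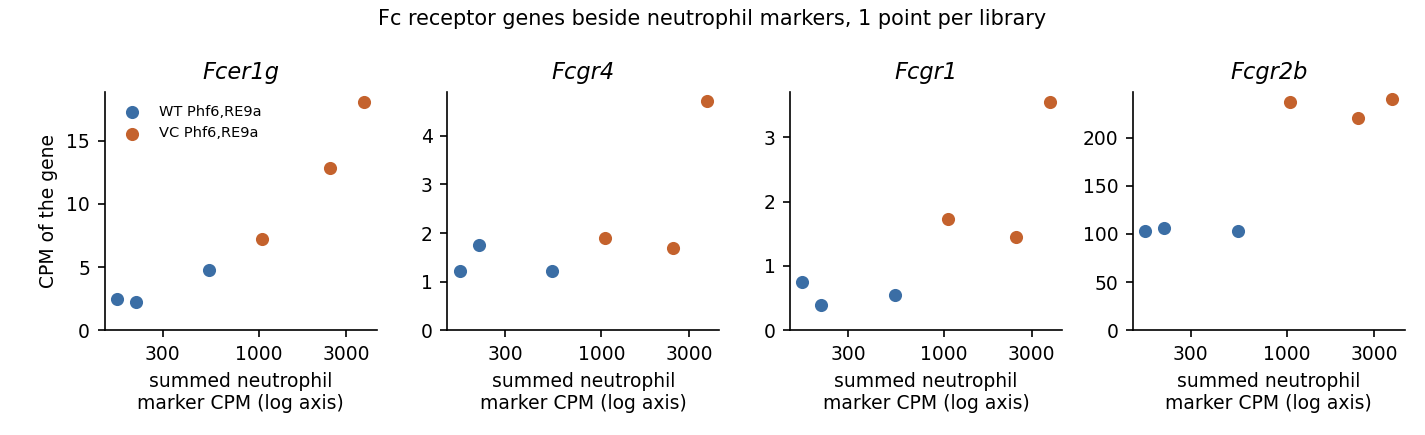
CPM of *Fcer1g*, *Fcgr4*, *Fcgr1* and *Fcgr2b* in each library against the summed CPM of 11 neutrophil markers (log axis), with WT in blue and VC in orange. Each of these genes is highest in the library with the highest neutrophil sum, replicate 11 of VC cells. *Fcgr2b* lies between 220 and 240 CPM in all 3 VC libraries.

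B cells are known for *Fcgr2b* as their IgG receptor. Of 7 B cell markers 4 were tested, all of which passed the filter only through the VC libraries, so that how many of them rose is no result. With at least 10 counts in every library edgeR could test none of them. The summed level of the 7 was at most 1.17 CPM in WT libraries and 27.8, 28.3 and 9.33 CPM in VC libraries. The part of B cell RNA in the change of *Fcgr2b* was not tested. The sum of 12 monocyte and macrophage markers, cells in which *Fcgr1* is known, was 182 to 199 CPM in WT and 125 to 200 CPM in VC libraries. Of the 12, 3 were higher and 2 lower, where 21.5% of all genes were higher and 22.7% lower. Only 1 was lower without any 1 of the VC libraries or replicate 1 or 3 of WT cells. The part of monocytes and macrophages in the rise of *Fcgr1* was not tested. For 7 dendritic cell markers the sum was 1.95 to 5.57 CPM in WT and 40.8 to 59.1 CPM in VC libraries. For 5 eosinophil markers it was 41.6 to 62.9 and 112 to 149 CPM. For 6 NK cell markers it was 1.22 to 2.79 and 4.46 to 7.62 CPM, and for 6 T cell markers 1.10 to 1.57 and 6.30 to 8.80 CPM. *Eomes*, an NK cell factor, was at 0 in all WT libraries.

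Genes that act with Fc receptors fell more often than they rose. Of 98 such genes in 7 lists, 92 were tested, 48 fell, 15 rose and 29 did not pass the threshold, with a median log2 fold change of -0.44, where 22.7% of all genes fell and 21.5% rose. Among those that rose, *Vav3*, *Cplx2* and *Marcks* passed the filter only through the VC libraries, where each was higher. All 3 adaptors built like the gamma chain fell, unlike *Fcer1g* itself. *Tyrobp* (DAP12), which pairs with many myeloid receptors, had 2012, 1997 and 1501 counts in WT and 715, 577 and 351 in VC libraries (log2 fold change -1.88, SE 0.26, edgeR adjusted p = 0.00108). *Hcst* (DAP10) had a log2 fold change of -1.37 and *Cd247*, the zeta chain of the T cell receptor, of -0.83. Of 10 other receptors that pair with the gamma chain, 5 were tested and 2 fell, *Tarm1* (-2.30) and *Pira2* (-0.87). Of these 1 remained without replicate 12 or 13 of VC cells or replicate 1 or 2 of WT cells. *Clec4d* (1.37) and *Clec4e* (-0.64) did not pass the threshold. The number that rose was 0, and 1 with DESeq2, with no filter or without replicate 13 of VC cells.

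**Figure D5:**
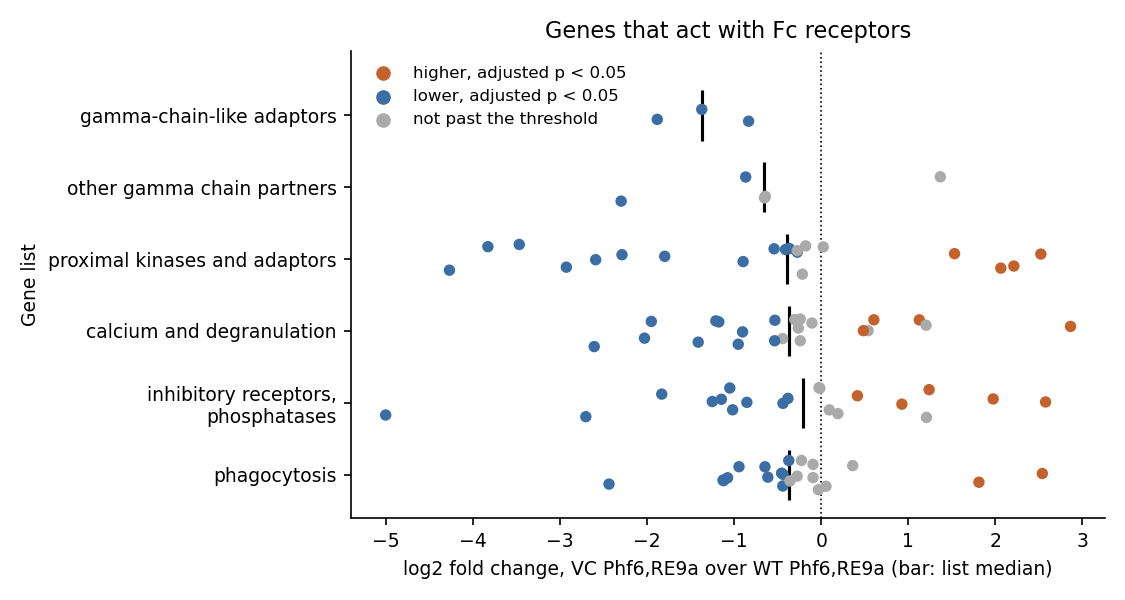
log2 fold change in VC over WT cells of the tested genes that act with Fc receptors, in 6 lists, with a black bar at the median of each list (edgeR). The medians lie between -1.37 and -0.20, and *Lilrb4a* at -5.00 is the lowest point.

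Among 20 kinases and adaptors next to the receptors, 12 fell and 4 rose, with a median log2 fold change of -0.39, where 22.7% of all genes fell and 21.5% rose. *Tec*, a kinase, had a log2 fold change of -3.47 (edgeR adjusted p = 2.56e-05), the adaptor *Lat2* of -3.83 and *Plcg1*, the phospholipase that makes calcium-releasing messengers, of -2.93. *Lcp2* (SLP-76) was at -0.90, *Grb2* at -0.22 without passing the threshold, and *Grap2* rose by 1.53. The genes that follow were singled out after their values were seen. *Syk*, the kinase that docks on the gamma chain, had 1194, 2875 and 2374 counts in WT and 682, 569 and 197 in VC libraries (log2 fold change -2.29, edgeR adjusted p = 0.00643). *Lyn*, the kinase that phosphorylates the receptor chains, had a log2 fold change of -0.28, and *Lat*, the scaffold of mast cell signalling, fell by 2.59 on the log2 scale. *Fgr* (2.06) and *Vav3* (2.52) rose, *Vav3* having passed the filter only through the VC libraries, and *Fgr*, a kinase of the Src family, had its highest VC count in replicate 11 and its lowest in replicate 13, as *Fcer1g* did. The number that rose was 2 without replicate 11 of VC cells or replicate 1 of WT cells.

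Of 22 genes of calcium entry and degranulation 10 fell and 4 rose (median -0.37), beside 22.7% and 21.5% of all genes. *Rab27b*, which positions secretory granules, was at -2.03, the protein kinases *Prkca* and *Prkcd* at -1.21 and -1.41, and the fusion protein *Snap23* at -0.95. *Vamp8*, a granule SNARE, rose by 0.60. The number that rose was 2 without replicate 11 or 13 of VC cells or replicate 2 of WT cells.

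Of 20 inhibitory receptors and phosphatases 10 fell and 5 rose (median -0.20), beside 22.7% and 21.5% of all genes. Without replicate 12 of VC cells 3 rose. *Lilrb4a*, an inhibitory receptor of mast and myeloid cells, had 19533, 21447 and 13757 counts in WT and 935, 741 and 209 in VC libraries (log2 fold change -5.00, SE 0.54, edgeR adjusted p = 0.000359). *Inpp5d*, the lipid phosphatase through which *Fcgr2b* signals, had 13264, 13134 and 10704 counts against 6778, 6249 and 7084 (-1.02), so that it fell while the receptor rose. *Dok2* was at -1.25 and *Laptm5* at -0.38.

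Of 22 genes of phagocytosis through IgG receptors, 21 were tested, 11 fell and 2 rose (median -0.37), beside 22.7% and 21.5% of all genes. *Wipf1*, an actin regulator, was at -1.12, *Pla2g4a*, the phospholipase that releases arachidonic acid, at -1.08, *Pld2* at -2.44 and *Arpc2*, a subunit of the actin-branching complex, at -0.61. *Rac2* (-0.23) and *Arpc5* (-0.09) did not pass the threshold. These lists thus held both falling and rising members, and the gene counts of each list describe it without a test of the list.

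Other members of the Fc receptor family were mostly too low to test. Of 11 genes, 3 were tested, of which *Fcrla* and *Fcrlb* passed the filter only through the VC libraries, where they were high. The values were higher in VC cells for *Fcrla* (log2 fold change 2.29, 12, 6 and 17 against 81, 67 and 39 counts), a B cell protein, for *Fcrlb* (1.49) and for *Trim21* (1.08), which binds antibody in the cytosol and was the 1 gene left with at least 10 counts in every library. *Fcer2a*, the low-affinity IgE receptor, *Fcrl6*, *Fcamr* and *Pigr* were at 0 in all WT libraries, and *Fcrl5* and *Fcrls* in all 6, which allows up to 0.191 CPM in a library. *Gp6*, which pairs with the gamma chain in platelets, was at 0 in all WT libraries.

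*Fcgr2b*, *Fcgr3*, *Fcgr4* and *Fcer1g* lie in 275749 bases of chromosome 1 (chr1:170958617-171234365). Of 13 other genes there 3 were tested, *Cfap126* (0.50), *Sdhc* (0.21) and *Tomm40l* (0.57), and 0 passed an adjusted p of 0.05 in edgeR, where 2 had an unadjusted p under 0.05 and DESeq2 called 1. Within this interval *Fcgr3* fell between neighbours that rose or did not pass the threshold.

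The genes with the most similar profiles were taken by the root mean square distance of centred log2 CPM over the 6 libraries, among 11438 genes. For *Fcer1a* they were *Mcpt-ps1* (0.328) and *Sytl3* (0.370), with log2 fold changes of -7.06 and -7.90. For *Fcer1g* they were *F630028O10Rik* (0.0953) and *Cd300a* (0.0972), for *Fcgr2b* *Fam13b* (0.0489) and *Pkd2l2* (0.0517), and for *Fcgr3* *Trim3* (0.0920) and *Lrch1* (0.0965). *Ms4a2* lay nearest to *Snupn* (0.0633) and *Ccdc28a* (0.0649), *Fcgr1* to *Ifi204* (0.210) and *Plaur* (0.219), *Fcgr4* to *Gm18194* (0.172) and *Galr2* (0.235), and *Fcgrt* to *Gm43858* (0.0925) and *Wwp1* (0.138). The 6 libraries form 2 groups, so that these distances include the group difference.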

How the data were processed

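RNA from 3 *WT Phf6,RE9a* (WT) and 3 *VC Phf6,RE9a* (VC) samples was sequenced as paired reads on an Illumina NovaSeq. The authors deposited read counts per Ensembl gene without normalization and FPKM, which divide each count by the gene length in the table and by a library size of the authors. The submitters' processing notes name Bowtie 0.12.0 and mm8, but 54409 of 54532 identifiers were found in GENCODE M21 (GRCm38), where 98.33% kept both ends, all 8 members among them, so coordinates are GRCm38. Counter, annotation release and strandedness are not given in the sources used here. The 5 deposited columns of the authors' comparison (means, fold changes and p-values) were not used.

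Counts were filtered (filterByExpr), scaled by TMM and compared over all genes with the quasi-likelihood test of edgeR 4.0.16 in R 4.3.3, with Benjamini-Hochberg adjustment at 0.05 (2-sided), after checking the steps on simulated counts. Standard errors are the log2 fold change over the square root of F. Exact permutation tests used log2 ratios of counts plus 0.5. Likeness used log2 CPM with a prior count of 2 among genes with a mean of at least 1. Alternatives were DESeq2 1.42.0, its size factors, limma 3.58.1 on log2(FPKM + 1) and log2(FPKM + 0.1), no filter, a filter of 10 counts in every library, and leaving out each library. For ratios they were FPKM plus 0.1, 1 count in place of 0.5, and each library left out. Libraries of a group differed beyond counting noise, so none was merged. The members and lists were chosen with earlier results of these data known. In each list of partner or family genes the text names the 3 with the smallest p and the 3 with the highest FPKM, and in marker lists the 2 highest and those at 0 in a group. Of these, those not printed are in the counts. Promoters came from RefSeq (8 of 8 members matched).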

Additional observations from a re-analysis of the deposited data

How the results depend on the processing

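Under the 12 alternatives no call of an Fc receptor gene changed and no direction turned, except that *Fcgr1* could not be tested with at least 10 counts in every library, which left 3 higher members. The log2 fold change ranged from -7.00 to -6.55 for *Fcer1a*, from 1.65 to 2.40 for *Fcer1g*, from 0.59 to 2.23 for *Fcgr1*, from 1.11 to 1.20 for *Fcgr2b*, from -1.17 to -0.90 for *Fcgr3* and from 0.65 to 1.89 for *Fcgrt*. *Ms4a2* ranged from -0.31 to -0.04 (adjusted p from 0.116 to 0.885) and *Fcgr4* from 0.37 to 1.25 (adjusted p from 0.0845 to 0.479), edgeR, DESeq2 and limma included. None of the 6 log2 ratios changed sign under 8 alternatives. Over all genes, 2179 to 3132 were higher and 2511 to 3383 lower. With at least 10 counts in every library, which removes genes low in a group, 1 gene of the other Fc receptor family was higher in place of 3, and 17 marker genes in place of 27. No paired analysis was possible because the groups share no replicate numbers. Counts under about 20 per library, as for *Fcgr1* and *Fcgrt* in WT cells, limit the precision of those folds.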
